A study of Mus musculus with 3 samples.

Results

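*Xcl1*, *Flt3l*, *Ifng* and *Csf2* encode secreted proteins that natural killer (NK) cells can make and to which type 1 conventional dendritic cells (cDC1s) respond. They are 4 of the 32285 genes in the count matrices and were chosen by name. Their raw counts were read mainly in 3370 of 30209 cell barcodes, called NK-gated here. An NK-gated barcode lay outside the deposited table of cDC1s, held at least 1 unique molecular identifier (UMI, a captured RNA molecule) of *Ncr1* or *Klrb1c*, and held 0 UMIs of *C1qa*, *Xcr1* and *Cd209a*. *Ncr1* encodes the NK cell receptor NKp46 and *Klrb1c* encodes NK1.1, while *C1qa* marks macrophages, *Xcr1* marks cDC1s and *Cd209a* marks other dendritic and monocyte-derived cells. NK-gated barcodes were set against 201 Cd3e-gated barcodes and against the 5806 cDC1s of the table. A Cd3e-gated barcode lay outside the table, held at least 1 UMI of *Cd3e*, a gene of the T cell receptor complex, and held 0 UMIs of the other 5 gate genes, so that no barcode was in more than 1 group.

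The study profiled sorted dendritic cells and their precursors, by droplet single-cell RNA sequencing, from MCA205 LA-OVA tumours, a transplanted mouse fibrosarcoma line that carries ovalbumin as a model antigen. There was 1 library per genotype, from WT, sGSN-/- and sGSN-/-Clec9a-/- mice, in that order wherever 3 values are listed without names. Mice were on the C57BL/6J background, and the tumours of many mice of both sexes were pooled by genotype, so that genotype, pool and library cannot be told apart. The sort kept CD11c-positive, MHC class II-positive cells without CD88 and left out cells with NK1.1 or CD3e protein, so the lymphocyte barcodes are cells that passed this gate and not a sample of all lymphocytes in the tumours. Secreted gelsolin, missing in sGSN-/- and sGSN-/-Clec9a-/- mice, binds the actin that the cDC1 receptor DNGR-1, the product of *Clec9a*, recognises on dead cells. Levels are given as counts per 1000000 UMIs of a group (CPM). *Clec9a* stood at 168 and 169 CPM in the cDC1s of the WT and sGSN-/- libraries, and at 0.0931 CPM (2 UMIs) in those of the sGSN-/-Clec9a-/- library. *Gsn* was read in all 3 (152, 169 and 167 CPM), and these counts do not separate its secreted form.

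In tumours, NK cells draw in and sustain cDC1s. The chemokine XCL1 acts on XCR1, which is nearly restricted to cDC1s, and FLT3 ligand acts on FLT3, a receptor that dendritic cells and their precursors need in order to form and survive. Interferon gamma drives antigen presentation and the making of CXCL9 and interleukin 12 in dendritic cells, and GM-CSF, the product of *Csf2*, supports the survival and activation of myeloid cells.

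The libraries held 12763, 8173 and 9273 barcodes and 176578136, 109270958 and 113411930 UMIs. NK-gated barcodes numbered 835, 1469 and 1066, which was 6.54% of the WT library (95% exact Clopper-Pearson interval 6.12 to 6.98), 18.0% of the sGSN-/- library (17.1 to 18.8) and 11.5% of the sGSN-/-Clec9a-/- library (10.8 to 12.2). They were shallower than cDC1s, with a median of 7050 UMIs against 13501, and Cd3e-gated barcodes had a median of 6087 UMIs. The summed UMIs of the NK-gated barcodes came to 9493346, 13974556 and 8287448, and those of the Cd3e-gated barcodes to 364491, 697068 and 549552 from 40, 86 and 75 barcodes. Pairs of libraries shared 26, 28 and 27 barcode sequences, none of them NK-gated in both. All intervals given here are 95% intervals that cover counting error alone.

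The label of NK cells was checked against marker lists that left out the gate genes. All 9 NK markers were detected in NK-gated barcodes, with a summed level of 8352, 9108 and 9735 CPM, and *Gzma*, which encodes granzyme A, was the most abundant at 3720 CPM. In cDC1s the same list summed to 248, 312 and 247 CPM, led by *Klrk1*. The 10 T cell markers summed to 751, 782 and 782 CPM in NK-gated barcodes, led by *Trbc1*, against 5646, 5192 and 5765 CPM in Cd3e-gated barcodes, led by *Trbc2*. Cd3e-gated barcodes also held the NK list at 4796, 4473 and 4990 CPM, with *Nkg7* leading, below NK-gated barcodes in every library. Of the 9 NK markers, 7 were called higher in NK-gated than in Cd3e-gated barcodes by the test described below and 0 lower. Among all genes, 5.09% were called higher and 5.78% lower. The 7 included *Prf1* (log2 difference 2.56) and *Gzma* (1.75), and *Nkg7* and *Gzmb* were not called. The median of the list was 1.58 against 0.01 for all genes. *Gata3*, a gene of innate lymphoid cells that NK cells and T cells also express, was at 44.6 ± 1.16 CPM in NK-gated and 39.2 ± 8.60 CPM in Cd3e-gated barcodes. *Il7r*, a receptor gene of T cells and other innate lymphoid cells, was at 15.3 ± 1.05 CPM against 108 ± 47.8 CPM and was called lower in NK-gated barcodes (log2 difference −2.79). The 6 cDC1 markers summed to 77.0, 85.9 and 75.9 CPM (most abundant *Naaa*), against 2333, 2235 and 2326 CPM in cDC1s. The 4 cDC2 markers summed to 88.7, 76.5 and 95.3 CPM (*Itgam*), the 7 macrophage markers to 177, 74.2 and 81.9 CPM (*Apoe*), and the 4 plasmacytoid markers to 4.42, 23.3 and 29.7 CPM (*Siglech*). The 6 granulocyte, mast cell or basophil markers summed to at most 1.22 CPM in a library (*Cpa3*), with *S100a8* and *S100a9* at 0. *H2-Aa*, an MHC class II gene, was at 756 ± 75.7 CPM (mean ± SD, n = 3 libraries) in NK-gated barcodes and 8397 ± 117 CPM in cDC1s. The NK-gated barcodes thus carried the markers of NK cells, with a lesser amount of T cell, myeloid and MHC class II transcripts, whose part in the levels below was not tested.

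*Xcl1* encodes the chemokine XCL1. NK-gated barcodes held 17879, 26419 and 13534 *Xcl1* UMIs, which was 1883 CPM in the WT library (exact Poisson interval 1856 to 1911), 1891 CPM in the sGSN-/- library (1868 to 1913) and 1633 CPM in the sGSN-/-Clec9a-/- library (1606 to 1661). Cd3e-gated barcodes held 43, 330 and 94 UMIs, or 118, 473 and 171 CPM. The cDC1s held 98, 323 and 95 UMIs, or 2.999, 13.7 and 4.42 CPM. The 3 groups did not overlap in any library. The highest value among Cd3e-gated barcodes rested on 1 barcode, which held 240 of the 330 UMIs of the sGSN-/- library, and without it the level there was 131 CPM. NK-gated barcodes were 6.54%, 18.0% and 11.5% of the barcodes but held 67.8%, 71.6% and 67.9% of all *Xcl1* UMIs of their libraries. An *Xcl1* UMI was present in 84.8%, 82.8% and 80.2% of them, and in 4.15%, 15.1% and 5.12% of cDC1s at their greater depth. After thinning each barcode to 3000 UMIs, the shares were 79.8%, 78.9% and 76.9% of NK-gated barcodes, 11.4%, 21.2% and 16.2% of Cd3e-gated barcodes, and 0.706%, 3.31% and 0.530% of cDC1s.

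*Flt3l* encodes FLT3 ligand. It was read as 351, 595 and 280 UMIs in NK-gated barcodes, or 37.0, 42.6 and 33.8 CPM. In Cd3e-gated barcodes there were 15, 41 and 18 UMIs, or 41.2, 58.8 and 32.8 CPM, and in cDC1s 154, 108 and 88 UMIs, or 4.71, 4.58 and 4.10 CPM. NK-gated and Cd3e-gated barcodes overlapped, and both lay above cDC1s in every library. At 3000 UMIs per barcode, *Flt3l* was present in 13.9%, 12.5% and 10.2% of NK-gated barcodes, in 20%, 19.7% and 7.35% of Cd3e-gated barcodes, and in 1.37%, 1.47% and 1.296% of cDC1s. NK-gated barcodes held 26.2%, 48.1% and 29.3% of the *Flt3l* UMIs of their libraries, a smaller share than for the other 3 genes.

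*Ifng* encodes interferon gamma. NK-gated barcodes held 1777, 2525 and 1785 UMIs, or 187 CPM (179 to 196), 181 CPM (174 to 188) and 215 CPM (206 to 226). Cd3e-gated barcodes held 120, 159 and 103 UMIs, or 329, 228 and 187 CPM. The cDC1s held 9, 21 and 18 UMIs, or 0.275, 0.891 and 0.838 CPM. The ranges of NK-gated and Cd3e-gated barcodes overlapped, and no cDC1 sum reached 1 CPM. At 3000 UMIs per barcode, *Ifng* was present in 29.3%, 29.8% and 35.8% of NK-gated barcodes, in 42.9%, 45.5% and 25% of Cd3e-gated barcodes, and in 0.0441%, 0.429% and 0.177% of cDC1s. NK-gated barcodes held 66.6%, 67.8% and 61.4% of the *Ifng* UMIs of their libraries.

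*Csf2* encodes GM-CSF. There were 167, 265 and 72 UMIs in NK-gated barcodes, or 17.6, 19.0 and 8.69 CPM. These UMIs lay in only 19, 30 and 14 barcodes, or 2.28%, 2.04% and 1.31% of the group. Cd3e-gated barcodes held 0, 11 and 1 UMIs, and 10 of the 11 were in 1 barcode. A count of 0 in the 40 Cd3e-gated barcodes of the WT library allows up to 8.23 CPM (3 counts of their UMIs) and a share of barcodes with a UMI of up to 7.50%. The cDC1s held 1, 2 and 0 UMIs, and the 0 of 1778 cDC1s in the sGSN-/-Clec9a-/- library allows a share of up to 0.169%. NK-gated barcodes held 75.9%, 76.6% and 78.3% of the *Csf2* UMIs of their libraries, the highest shares of the 4 genes.

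**Figure D1:**
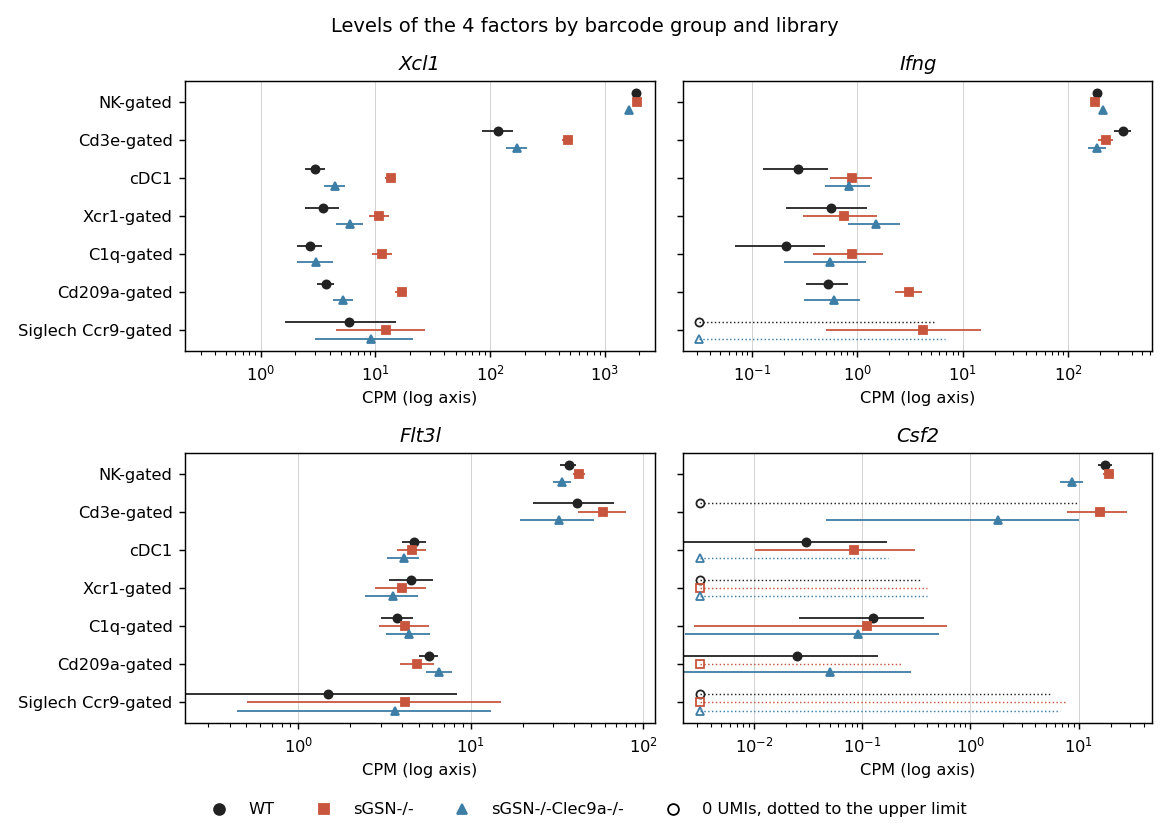
CPM (log axis) of each gene in 7 barcode groups, with 1 point per library and 95% Poisson intervals, and open points with dotted lines for 0 UMIs and their upper limit. *Xcl1* in NK-gated barcodes (1633 to 1891 CPM) lies apart from Cd3e-gated barcodes (118 to 473 CPM), whereas *Ifng* and *Flt3l* overlap between these groups.

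Further groups, chosen outside the table by other genes and with *Ncr1*, *Klrb1c* and *Cd3e* at 0, placed these levels. Mean *Xcl1* over the 3 libraries was 1802 ± 147 CPM in NK-gated barcodes and 254 ± 192 CPM in Cd3e-gated barcodes. It was 9.19 ± 3.25 CPM with *Siglech* and *Ccr9* (plasmacytoid genes), 8.62 ± 7.24 CPM with *Cd209a*, 7.04 ± 5.82 CPM in cDC1s, 6.78 ± 3.74 CPM in *Xcr1*-positive barcodes outside the table and 5.76 ± 5.02 CPM with all 3 C1q genes. NK-gated barcodes were apart from Cd3e-gated barcodes and these from the other groups, and the 5 lowest groups lay within their spread. For *Flt3l* the order began with Cd3e-gated (44.2 ± 13.3 CPM) and NK-gated barcodes (37.8 ± 4.45 CPM), which did not differ beyond their spread. It went on with *Cd209a* (5.74 ± 0.841 CPM), cDC1s (4.47 ± 0.324 CPM), C1q (4.12 ± 0.328 CPM), *Xcr1* (4.02 ± 0.502 CPM) and *Siglech* and *Ccr9* (3.1 ± 1.42 CPM). The *Cd209a* group lay above cDC1s (4.91 to 6.59 against 4.10 to 4.71 CPM), and the later neighbours were within their spread. *Ifng* stood at 248 ± 73.0 CPM in Cd3e-gated and 194 ± 18.4 CPM in NK-gated barcodes, and at or below 1.41 CPM on average in the other 5 groups. *Csf2* stood at 15.1 ± 5.58 CPM in NK-gated and 5.87 ± 8.63 CPM in Cd3e-gated barcodes, which were within their spread, and at 0.1095 CPM or less in the other 5 groups.

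Counts were compared between groups with edgeR's quasi-likelihood test on the UMIs summed per library and group, 3 sums against 3, with Benjamini-Hochberg adjustment over all genes that passed edgeR's filter on low counts, and an adjusted p below 0.05 was called. The sums of 3 genotypes served as replicates. Membership of the cDC1 table came from clustering by expression and the gates from single genes. An adjusted p against the other groups therefore weighs a difference against the spread of the libraries and is no test of a separate property. All 4 genes passed the filter and were called higher in NK-gated barcodes than in cDC1s. Among all 12283 genes tested, 4485 (36.5%) were called higher and 4528 (36.9%) lower. Called genes thus split 49.8% to the higher side, and leaving out edgeR's TMM scaling factors moved that to 6313 of 9508 (66.4%) and the median log2 difference of all genes from 0.02 to 0.32, without changing the direction of these 4 genes or of any called list gene. The log2 difference was 7.73 (SE 0.43, adjusted p 2.36e-08 by edgeR) for *Xcl1*, higher in 3 of 3 libraries. It was 2.78 (SE 0.10, adjusted p 6.1e-10 by edgeR) for *Flt3l*, also higher in 3 of 3 libraries. *Ifng* passed the filter through the NK-gated sums alone, so its call is given no weight beyond the counts, by which it was 680 times (interval 357 to 1489), 203 times (132 to 328) and 257 times (162 to 435) the level of cDC1s in the 3 libraries. *Csf2* was higher in 3 of 3 libraries, but it passed the filter in the same way and the cDC1s held 3 UMIs in all, so its call follows from counts near 0 and is given no weight beyond the counts. The NK-gated level was 575 times that of cDC1s (interval 102 to 22838) in the WT library and 223 times (61.2 to 1854) in the sGSN-/- library. In the sGSN-/-Clec9a-/- library, where cDC1s held 0 UMIs, it was 62.2 times a floor of 3 counts. This value is no lower limit, as 40 of the 72 NK-gated *Csf2* UMIs of that library lay in 1 barcode.

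Against Cd3e-gated barcodes, 1 of the 4 genes was called higher in NK-gated barcodes and 0 lower, where 526 of 10339 genes (5.09%) were called higher and 598 (5.78%) lower. *Xcl1* differed by a log2 of 2.80 (SE 0.30, adjusted p 1.53e-05 by edgeR) and was higher in 3 of 3 libraries. Without the sGSN-/- library, which held the barcode with 240 UMIs, the difference was 3.596, and the level was 16.0 times (interval 11.8 to 22.1), 3.99 times (3.58 to 4.46) and 9.55 times (7.80 to 11.8) that of Cd3e-gated barcodes in the 3 libraries. *Ifng* differed by −0.26 (SE 0.15, adjusted p 0.33 by edgeR), lower in the WT library (ratio 0.569, interval 0.472 to 0.690) and in the sGSN-/- library (0.792, 0.675 to 0.936), and with a ratio of 1.15 (0.942 to 1.42) in the sGSN-/-Clec9a-/- library. Without the Cd3e-gated barcode with most *Ifng*, that group stood at 193 CPM in the sGSN-/- library, against 181 CPM in NK-gated barcodes. Counting error thus understates the spread of these ratios. *Flt3l* differed by −0.22 (SE 0.19, adjusted p 0.548 by edgeR), with intervals of the ratio that included 1 in each library and, over 3 libraries, a ratio of 0.841 (0.664 to 1.08). *Csf2* differed by 1.10 (SE 0.64, adjusted p 0.33 by edgeR), and over 3 libraries the ratio was 2.13 (1.21 to 4.15), with 11 of the 12 Cd3e-gated UMIs from 1 library. Without that library the fitted difference was 3.58, without a call. Taking every barcode outside the table with *Cd3e* that was not NK-gated, also those that held *C1qa*, *Xcr1* or *Cd209a*, turned the *Flt3l* difference to 0.46 (SE 0.13, adjusted p 0.0139 by edgeR) and that of *Ifng* to 0.38.

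Cd3e-gated barcodes were themselves called higher than cDC1s for the 3 genes that passed the filter, *Xcl1*, *Flt3l* and *Ifng*, where 2228 of 11260 genes (19.8%) were called higher and 2725 (24.2%) lower. Without TMM factors, called genes split 3371 of 5084 (66.3%) to the higher side, in place of 45.0%, and the median of all genes moved from −0.08 to 0.25. The log2 differences were 4.99 (SE 0.50, adjusted p 1.03e-06 by edgeR) for *Xcl1* and 3.01 (SE 0.24, adjusted p 7.16e-08 by edgeR) for *Flt3l*, each higher in 3 of 3 libraries. *Ifng* passed the filter through the Cd3e-gated sums alone, and by its counts it was 1195 times (interval 609 to 2678), 256 times (162 to 425) and 224 times (135 to 392) the level of cDC1s. *Csf2* did not pass the filter in this comparison, and it was called higher without the filter (6.82, SE 0.97, adjusted p 2.7e-11 by edgeR) and in 1 fit over the 3 groups (6.91, SE 1.3, adjusted p 0.000402 by edgeR), each time on few counts. Its 12 UMIs against 3 gave a ratio of 193 (interval 52.1 to 1065) over 3 libraries, which rested on the sGSN-/- library (11 UMIs against 2), as the WT library held 0 against 1 and the sGSN-/-Clec9a-/- library 1 against 0. Among Cd3e-gated barcodes, the 131 with a *Cd8a* UMI held *Xcl1* at 88.9 ± 44.4 CPM, *Flt3l* at 48.9 ± 17.3 CPM, *Ifng* at 267 ± 80.2 CPM and *Csf2* at 0 UMIs. The 13 with *Trdc*, the constant gene of the delta chain, held 261 of the 467 *Xcl1* UMIs and 11 of the 12 *Csf2* UMIs of the group, most of them in single barcodes.

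The low *Xcl1* counts in cDC1s varied between libraries as other NK genes did. Per UMI of *Gzma*, the most abundant NK marker, there were 0.592, 0.509 and 0.383 *Xcl1* UMIs in NK-gated barcodes, 0.533, 0.640 and 0.420 in cDC1s and 0.610, 0.802 and 0.344 in C1q-gated barcodes. The *Xcl1* level in cDC1s was 0.159%, 0.725% and 0.271% of that in NK-gated barcodes, the *Gzma* level 0.177%, 0.576% and 0.247%, and the *Ifng* level 0.147%, 0.493% and 0.389%. These 3 genes were highest relative to NK-gated barcodes in the sGSN-/- library, which also had the largest share of NK-gated barcodes. The 4.57-fold ratio of *Xcl1* in cDC1s between the sGSN-/- and WT libraries (interval 3.64 to 5.79) therefore stood beside 21.4 against 5.63 CPM of *Gzma* in the same cells, and whether cDC1s themselves express *Xcl1* was not tested. *Flt3l* did not keep this ratio. Its level in cDC1s was 12.8%, 10.8% and 12.1% of that in NK-gated barcodes, and in C1q-gated barcodes 10.2%, 9.82% and 13.0%, with 0.837, 0.214 and 0.389 *Flt3l* UMIs per *Gzma* UMI in cDC1s against 0.0116, 0.0115 and 0.00793 in NK-gated barcodes. At 3000 UMIs per barcode its share in cDC1s was 1.296% to 1.47%, alike in the 3 libraries, whereas that of *Xcl1* ranged from 0.530% to 3.31%. Among cDC1 clusters of the table, *Flt3l* was lowest in clusters 8 (1.495 ± 0.491 CPM, 4 UMIs) and 10 (1.18 ± 2.05 CPM, 1 UMI), and between 3.38 and 6.96 CPM in clusters 0 to 7 and 9. The 1 UMI of cluster 10 came from the WT library and is too few to rank that cluster. *Xcl1* was not even over the clusters either. Apart from cluster 11 (10 UMIs), its mean was highest in cluster 8 (2.91, 37.8 and 9.70 CPM, 56 UMIs). In the other clusters its mean lay between 4.85 and 9.21 CPM. In the sGSN-/- library 1 cDC1 held 26 of the 323 *Xcl1* UMIs.

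Barcodes within the NK gate differed in how they shared the 4 genes. *Xcl1* was spread widely, with a median of 9.0, 6.0 and 5.0 UMIs per barcode, and 50% of its UMIs lay in 9.94%, 8.24% and 9.19% of NK-gated barcodes. *Ifng* had a median of 0, and 50% of its UMIs lay in 5.63%, 5.85% and 8.91% of barcodes, the highest of which held 69, 106 and 43. *Flt3l* never exceeded 5 UMIs in a barcode. For *Csf2*, 50% of the UMIs lay in 2, 2 and 1 barcodes (0.240%, 0.136% and 0.0938% of the group), and the highest barcode held 54, 109 and 40 UMIs. The *Csf2* levels of single libraries therefore rested on 1 or 2 barcodes, and without the highest they were 11.9, 11.2 and 3.87 CPM.

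**Figure D2:**
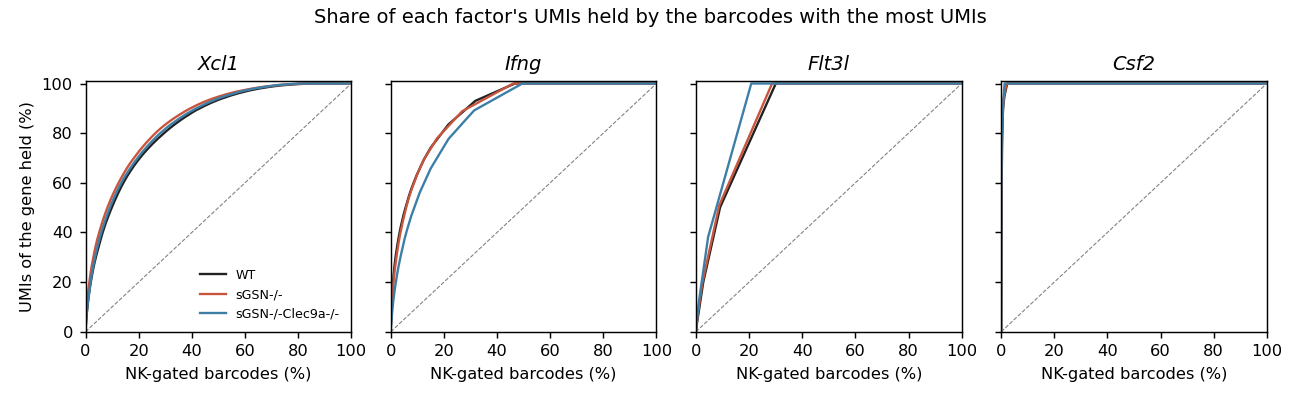
Share of each gene's UMIs (%) held by the NK-gated barcodes with the most UMIs of it, against the share of NK-gated barcodes (%), with 1 line per library and the dashed line for equal sharing. The *Csf2* lines reach 50% within 0.240% of the barcodes, and the *Xcl1* lines at 8.24% to 9.94%.

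Detection of the genes together was read per library. Among NK-gated barcodes thinned to 3000 UMIs, *Ifng* was present in 29.6%, 29.9% and 37.0% of those with *Xcl1* and in 27.7%, 29.1% and 32.0% of those without, with overlapping intervals in each library. *Flt3l* was present in 15.0%, 13.9% and 10.2% of those with *Xcl1* and in 9.68%, 7.28% and 10.2% of those without, and the intervals were apart in the sGSN-/- library alone (11.8 to 16.3 against 4.44 to 11.1). *Csf2* was present in 3.11% (1.26 to 6.30) of barcodes with *Ifng* and in 0.184% (0.00465 to 1.02) of those without in the WT library, with intervals apart on 7 and 1 barcodes, and in 0.815% against 0.806% and 1.88% against 0.525% in the other 2 libraries, with overlapping intervals. It was present in 1.303%, 0.923% and 1.32% of barcodes with *Xcl1*, and in 0, 1 and 0 barcodes without. None of *Xcl1*, *Ifng* and *Flt3l* was detected in 13.3%, 13.9% and 13.9% of these barcodes.

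*Xcl1* was lowest at the edge of the gate. The 483 NK-gated barcodes with a single UMI of *Ncr1* and *Klrb1c* together, just inside the gate, held *Xcl1* at 758 ± 142 CPM and *Nkg7*, an NK marker, in 66.5% of barcodes. The 336 with 2 UMIs held 1410 ± 180 CPM, the 936 with 3 to 5 held 1794 ± 321 CPM, and the 1615 with 6 or more held 1973 ± 146 CPM, with *Nkg7* in 99.9%. The class with 1 UMI was the lowest in every library, but the order of the others was not kept, with 2164 CPM at 3 to 5 UMIs and 1964 CPM at 6 or more in the WT library, and 1610.5 CPM at 2 UMIs and 1592 CPM at 3 to 5 in the sGSN-/-Clec9a-/- library. Just outside it, the 1254 barcodes with *Ncr1* or *Klrb1c* that were set aside because they also held *C1qa*, *Xcr1* or *Cd209a* held *Xcl1* at 796 ± 208 CPM, *Ifng* at 78.6 ± 10.9 CPM, *Flt3l* at 19.5 ± 2.94 CPM and *Csf2* at 2.79 ± 2.33 CPM, at a median depth of 17454 UMIs. Barcodes with *Ncr1* and no *Klrb1c* held *Xcl1* at 2392, 2533 and 2160 CPM, those with both at 1955, 1915 and 1603 CPM, and those with *Klrb1c* and no *Ncr1* at 648, 911 and 1140 CPM. These 3 kinds of barcode kept this order in every library. *Ncr1*-only barcodes were 10.2%, 15.2% and 18.0% of the group but held 82.6%, 55.5% and 79.2% of its *Csf2* UMIs, at 169, 96.4 and 46.5 CPM against 3.68, 10.03 and 2.45 CPM with both genes. *Klrb1c*-only barcodes held *Csf2* at 0, 6 and 0 UMIs.

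The barcodes that carried most *Csf2* were looked at after their values were seen, so what follows is a description without a test. There were 14 NK-gated barcodes with at least 5 *Csf2* UMIs, namely 6, 6 and 2 by library, and they held 430 of the 504 *Csf2* UMIs. *Klrb1c* was at 0 in 10 of them, in 71.4% against 14.6% of the other 3356 NK-gated barcodes, while their median of *Ncr1* was 11.0 UMIs against 2.0. They were deep, with a median of 23870 UMIs against 7020, and 2 of the 14 were among the barcodes with the highest doublet scores. *Xcl1* was at 6055 CPM in them against 1774 CPM, *Ifng* at 352 against 190 CPM and *Flt3l* at 8.65 against 38.9 CPM. *Gzma* was at 193 against 3738 CPM and *Ccl5* at 222 against 2892 CPM, while *Ccl3* was at 588 against 90.4 CPM. *Nkg7* was present in all 14 (93.4% of the others), *Gata3* in 11 (78.6% against 28.6%) and *Eomes* in 7 (50% against 55.5%). By level, *Nkg7* was lower in the 14 (496 against 1418 CPM), as were *Prf1* (159 against 303 CPM) and *Il2rb* (357.5 against 616 CPM). *Eomes* was at 133 against 138 CPM, and *Gata3* was higher (77.85 against 44.1 CPM). Among T cell and innate lymphoid genes, *Cd3d* was present in 5 (35.7% against 9.21%), *Trac* in 4 (28.6% against 15.4%), *Il7r* in 4 (28.6% against 5.69%) and *Cd3e* in 1 (7.14% against 1.88%), and *Il17a* was at 0 UMIs. These shares are of barcodes that differ in depth, and by level *Cd3d* was at 77.8 against 36.4 CPM, *Trac* at 14.4 against 24.9 CPM and *Il7r* at 14.4 against 15.4 CPM.

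*Itga1*, which encodes CD49a, a mark of tissue-resident NK cells and group 1 innate lymphoid cells, went with higher *Xcl1* and *Flt3l* and lower *Ifng*. In the 849 NK-gated barcodes with *Itga1*, *Xcl1* was at 2149, 2174 and 2015 CPM, against 1688, 1712 and 1494 CPM in the 2521 without. *Flt3l* was likewise at 44.7, 51.2 and 42.1 CPM against 31.3, 37.2 and 30.8 CPM. *Ifng* went the other way, with 148, 111 and 113 CPM against 216, 225 and 253 CPM, and *Csf2* stood at 1.74, 4.64 and 8.14 CPM against 29.3, 28.0 and 8.89 CPM, with overlapping intervals in the last library and a UMI in 2.12% against 1.78% of barcodes. For *Xcl1*, *Flt3l* and *Ifng* the library values of the 2 sides were apart, though the intervals of *Flt3l* overlapped in the sGSN-/-Clec9a-/- library, and barcodes with *Itga1* were deeper, with a median of 11469 UMIs against 6010. These differences were not tested. Splitting by *Eomes*, a transcription factor of NK cells, gave 1736 ± 163 CPM of *Xcl1* with it and 1923 ± 137 CPM without, and it was lower with *Eomes* in 3 of 3 libraries (1816, 1844 and 1549 CPM against 2009, 1995 and 1765 CPM) with intervals apart in each. *Flt3l*, *Ifng* and *Csf2* did not keep 1 direction over the libraries. The 64 NK-gated barcodes that also held *Cd3e* had *Xcl1* at 1499 ± 1027 CPM, *Flt3l* at 52.3 ± 15.2 CPM and *Ifng* at 205 ± 36.6 CPM.

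Cycling cells were compared through *Mki67*, a gene of dividing cells, present in 206, 306 and 179 NK-gated barcodes. These were deeper, with a median of 16505 UMIs against 6101. Of the 4 genes, 0 were called higher and 1 lower in these barcodes, where 1719 of 10552 genes (16.3%) were called higher and 1439 (13.6%) lower. *Flt3l* was at 27.1, 33.1 and 29.2 CPM with *Mki67* and at 44.3, 48.4 and 36.0 CPM without. The log2 difference was −0.56 (SE 0.12, adjusted p 0.00267 by edgeR), lower in 3 of 3 libraries, and it lost its call without the WT library (−0.46, adjusted p 0.057 by edgeR) and after thinning to 3000 UMIs (−0.30, adjusted p 0.376 by edgeR). *Ifng* was at 183.5, 176 and 164 CPM against 190, 183.5 and 240 CPM. It was lower in 3 of 3 libraries without a call (−0.27, SE 0.11, adjusted p 0.0794 by edgeR), and with the library as a block it was called at −0.24 (SE 0.07, adjusted p 0.00498 by edgeR). Without the sGSN-/-Clec9a-/- library the *Ifng* difference was −0.08. *Xcl1* was at 1843, 2240 and 1635 CPM against 1913, 1676 and 1632 CPM, a log2 difference of 0.09 (SE 0.09, adjusted p 0.525 by edgeR). *Csf2* was at 22.0, 31.2 and 1.12 CPM against 14.3, 11.4 and 12.3 CPM, and its difference of 0.63 (SE 0.44, adjusted p 0.309 by edgeR) became 1.06 with a call without the sGSN-/-Clec9a-/- library and −0.09 without the sGSN-/- library.

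Between genotypes there was 1 library each and no test. *Xcl1* in NK-gated barcodes had a ratio of 1.004 (interval 0.985 to 1.02) between the sGSN-/- and WT libraries and of 0.867 (0.848 to 0.887) between the sGSN-/-Clec9a-/- and WT libraries. *Flt3l* had ratios of 1.15 (1.01 to 1.32) and 0.914 (0.778 to 1.07), and *Ifng* of 0.965 (0.908 to 1.03) and 1.15 (1.08 to 1.23). *Csf2* had ratios of 1.08 (0.885 to 1.32) and 0.494 (0.369 to 0.655), and the UMIs behind them lay in so few barcodes that counting error understates their spread. The spread between libraries of 1 genotype is not known, so whether any of these ratios belongs to the genotype was not tested.

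The receptors of the 4 proteins were read in cDC1s. *Xcr1*, the receptor of XCL1, was at 205, 223 and 233 CPM in cDC1s and was 0 by definition in the other 2 groups. *Flt3*, the receptor of FLT3 ligand, was at 167, 154 and 164 CPM in cDC1s, against 7.48, 9.23 and 7.24 CPM in NK-gated barcodes. *Csf2ra* (214 ± 7.59 CPM), *Csf2rb* (158 ± 9.34 CPM) and *Csf2rb2* (15.5 ± 1.98 CPM) encode chains of the GM-CSF receptor and its relative. *Ifngr1* and *Ifngr2*, the chains of the interferon gamma receptor, were at 265 ± 21.9 and 79.4 ± 8.34 CPM in cDC1s and at 651 ± 31.9 and 11.2 ± 1.80 CPM in NK-gated barcodes. Of the 7 receptor genes, 1 (*Ifngr1*, log2 difference 0.99) was called higher in NK-gated barcodes than in cDC1s and 6 lower, among them *Flt3* (−4.62), *Ifngr2* (−3.15), *Csf2ra* (−3.01) and *Csf2rb* (−3.00). The median was −3.01 against 0.02 for all genes, and the difference in *Xcr1* was set by the gate. Against Cd3e-gated barcodes 0 of 6 tested receptor genes were higher and 2 lower (*Flt3* −1.35, *Csf2rb* −0.98; median −0.86 against 0.01), and Cd3e-gated barcodes had 1 of 7 higher (*Ifngr1*) and 5 lower than cDC1s (median −2.28 against −0.08). With *Mki67*, 1 of 6 (*Ifngr1*, −0.96) was lower and 0 higher (median −0.33 against −0.03). Of all genes, 36.5% were called higher and 36.9% lower in NK-gated barcodes than in cDC1s, and 5.09% and 5.78% against Cd3e-gated barcodes. For Cd3e-gated barcodes against cDC1s these shares were 19.8% and 24.2%, and with *Mki67* 16.3% and 13.6%.

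**Figure D3:**
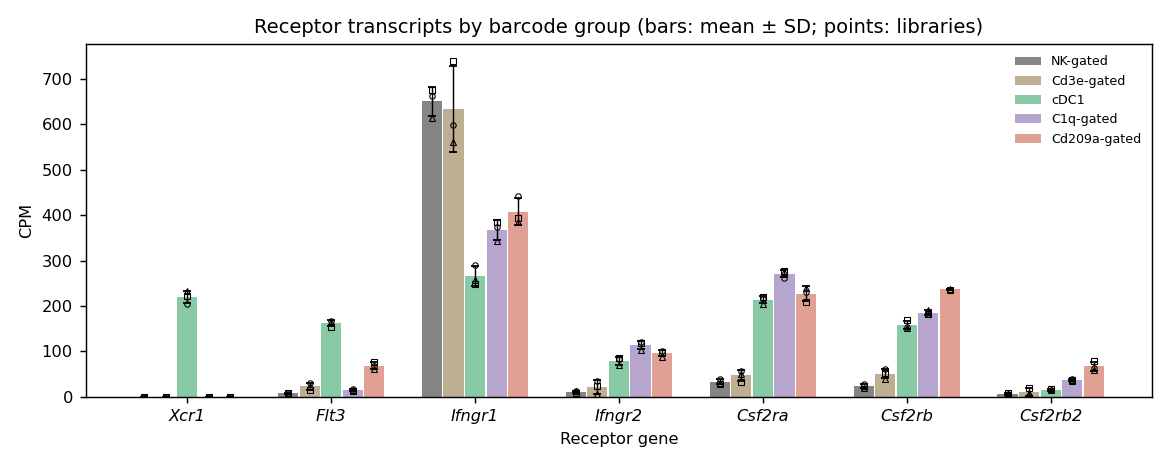
Receptor transcripts (CPM) by barcode group, with bars for the mean of 3 libraries, error bars for the SD and points for the libraries. *Flt3* stands at 162 CPM in cDC1s and 7.98 CPM in NK-gated barcodes, and *Ifngr1* at 265 and 651 CPM.

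Receptor levels varied among the cDC1 clusters of the table, which were defined by expression, so these values are a description. *Xcr1* was lowest in cluster 4 (62.1 ± 16.5 CPM) and highest in cluster 6 (362 ± 14.6 CPM), and *Flt3* lay between 107 and 174 CPM in clusters other than cluster 6 (400 ± 34.3 CPM) and the shallow cluster 11. *Ifngr1* ranged from 224 to 362 CPM in clusters 0 to 6 and was lower in cluster 8 (89.4 ± 21.5 CPM), cluster 10 (96.8 ± 55.6 CPM) and cluster 7 (143 ± 15.3 CPM). *Csf2rb* was highest in cluster 8 (420 ± 28.1 CPM) outside cluster 11. Cluster 8, the one with most *Il12b* (1856 ± 721 CPM), thus combined low *Ifngr1* with high *Csf2rb*, and cluster 10, the one with most *Cxcl9* (4832 ± 130 CPM), also had low *Ifngr1*.

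Among genes of the signalling below these receptors, *Jak1* (log2 difference 1.69), *Socs1* (1.35), *Stat3* (0.24) and *Irf1* (0.19) were called higher in NK-gated barcodes than in cDC1s, and *Jak2* (−2.06) and *Irf8* (−1.04) lower. Against Cd3e-gated barcodes *Irf8* (2.36) and *Stat3* (1.03) were higher and *Jak2* (−0.81) and *Irf1* (−0.69) lower.

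The receptors and factors that drive *Ifng* in lymphocytes were carried by NK-gated barcodes. *Il12rb2*, a chain of the interleukin 12 receptor, was at 39.5, 46.2 and 43.2 CPM in them and at 3.28, 3.95 and 2.65 CPM in cDC1s, and *Il18r1*, a chain of the interleukin 18 receptor, at 91.3, 92.9 and 83.9 CPM against 0.612, 1.23 and 0.419 CPM. Of the 12 genes in this list, 11 were called higher than in cDC1s and 1 (*Cxcr3*, −1.45) lower, with a median of 4.47 against 0.02. Among all genes, 36.5% were called higher and 36.9% lower. *Il18r1* and *Eomes* (0.479 CPM on average in cDC1s) passed the filter through the NK-gated sums alone, as *Ifng* did. Their calls carry no weight beyond the counts, although the number called and the median include them. Against Cd3e-gated barcodes 4 were higher (*Eomes* 1.72, *Il2rb* 1.58, *Tbx21* 1.25, *Il12rb2* 1.08) and 2 lower (*Cxcr3* −1.81, *Il21r* −0.51), with a median of 0.27 against 0.01. Cd3e-gated barcodes had 11 of 12 higher than cDC1s and 0 lower (median 4.08 against −0.08), and *Il18r1* and *Eomes*, low in cDC1s, carry no weight there either. Of all genes, 5.09% were called higher and 5.78% lower in NK-gated than in Cd3e-gated barcodes. For Cd3e-gated barcodes against cDC1s these shares were 19.8% and 24.2%. With *Mki67*, where 16.3% of all genes were called higher and 13.6% lower, 0 of 12 were higher and 8 lower. Among them were *Il12rb2* (−1.19) and *Stat4* (−0.60), and the median was −0.38 against −0.03. The NK markers were lower there too, 8 of 9 with a median of −0.34 and 0 higher, and 7 without TMM factors or with DESeq2, which did not call *Klrk1*.

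Most tested genes of signals that dendritic cells send to these lymphocytes were lower in NK-gated barcodes than in cDC1s, but *Il15ra* and *Cxcl10* were not called. *Il18* was at 78.1, 78.2 and 82.3 CPM in cDC1s against 2.42, 3.44 and 4.47 CPM in NK-gated barcodes, and *Cxcl9*, a chemokine that interferon gamma induces, at 129, 167 and 157 CPM against 1.37, 3.01 and 4.95 CPM. Of 8 genes tested in this list of 9, 0 were called higher in NK-gated barcodes than in cDC1s and 6 lower, among them *Cxcl9* (−5.94), *Il12b* (−5.68) and *Il18* (−4.85), with a median of −3.42 against 0.02. The 6 include *Il27*, which was low in cDC1s and passed the filter through their sums alone. Its call carries no weight, although the number called and the median include it. *Cxcl10* was not called (0.31, adjusted p 0.159 by edgeR; called without TMM factors), at 97.6 ± 19.8 CPM in NK-gated barcodes and 63.7 ± 17.9 CPM in cDC1s. Against Cd3e-gated barcodes 0 of 5 tested genes were higher and 3 lower (median −1.25 against 0.01). Cd3e-gated barcodes had 1 of 7 higher (*Cxcl10*, 0.79, adjusted p 0.0153 by edgeR) and 4 lower than cDC1s (median −1.49 against −0.08), and *Cxcl9* was not called there (−0.65). With *Mki67*, 0 of 6 were called in either direction (median −0.48 against −0.03). Of all genes, 36.5% were called higher and 36.9% lower in NK-gated barcodes than in cDC1s, and 5.09% and 5.78% against Cd3e-gated barcodes. For Cd3e-gated barcodes against cDC1s these shares were 19.8% and 24.2%, and with *Mki67* 16.3% and 13.6%. DESeq2, an alternative test, did not call *Cxcl9* against Cd3e-gated barcodes, which left 2 lower, or *Il12b* between Cd3e-gated barcodes and cDC1s, which left 3 lower.

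Other secreted factors of lymphocytes lay on both sides of the comparison with Cd3e-gated barcodes. *Ccl5* was at 2141, 2743 and 3891 CPM in NK-gated barcodes and 6017, 5494 and 7169 CPM in Cd3e-gated barcodes, while *Ccl3* was at 103, 81.9 and 112 CPM against 19.2, 21.5 and 21.8 CPM. Of 11 genes tested in this list of 14, 3 were called higher in NK-gated than in Cd3e-gated barcodes (*Ccl3* 2.27, *Ccl4* 1.85, *Tgfb1* 1.11) and 5 lower (*Ccl5* −1.04, *Tnf* −1.15, *Ltb* −1.62, *Areg* −1.52 and *Il17a*), with a median of −1.04 against 0.01. *Il17a* had 0 UMIs in NK-gated barcodes and 310 in 3 Cd3e-gated barcodes, so it passed the filter through the Cd3e-gated sums alone. Its calls, here and against cDC1s, carry no weight, although the numbers called and the medians of Cd3e-gated comparisons include it. Neither *Il17a* nor *Areg* was called by DESeq2, which called *Lta* in addition. Against cDC1s 8 of 11 were higher, led by *Fasl* (7.24) and *Ltb* (5.31), and 2 lower (*Ccl4* −0.94, *Tnf* −0.82), with a median of 1.56 against 0.02. Cd3e-gated barcodes had 7 of 11 higher and 2 lower than cDC1s (median 4.39 against −0.08), and 6 higher by DESeq2, which did not call *Il17a* there either. With *Mki67*, 1 of 10 was higher (*Tnfsf10*, 0.52) and 5 lower, led by *Ccl5* (−2.29), with a median of −0.36 against −0.03. Of all genes, 36.5% were called higher and 36.9% lower in NK-gated barcodes than in cDC1s, and 5.09% and 5.78% against Cd3e-gated barcodes. For Cd3e-gated barcodes against cDC1s these shares were 19.8% and 24.2%, and with *Mki67* 16.3% and 13.6%.

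The genes most like each of the 4 were found by Pearson correlation of log2(CPM + 1) over 27 sums of groups and libraries, among 14519 genes. The sums of 1 library share its pool and free RNA, so the values are a description. *Xcl1* was most like *Prf1* (r = 0.983), *Gzma* (0.982), *Txk* (0.980), *Klra7* (0.978) and *Eomes* (0.977). *Ifng* was most like *Lck* (0.996), *Nkg7* (0.990), *Cd96* (0.989), *Gimap4* (0.9885) and *Tnik* (0.988). *Flt3l* was most like *Cysltr2* (0.982), *F2r* (0.9795), *Rnf125* (0.979), *Ikzf3* (0.978) and *Gm20069* (0.9775). *Csf2* was most like *Klra6* (0.9575), *Rab4a* (0.9475), *Klrc3* (0.942), *Pip5k1b* (0.938) and *Gm16565* (0.931), all at low counts. Among the 4 themselves, r was highest between *Flt3l* and *Ifng* (0.962) and lowest between *Ifng* and *Csf2* (0.786).

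In GENCODE M21 (GRCm38), *Xcl1* (ENSMUSG00000026573) lies on the minus strand of chromosome 1, from 164931644 to 164935527, inside *Gm20743* on the plus strand, which had 26 UMIs in NK-gated barcodes. *Flt3l* (ENSMUSG00000110206) lies on the minus strand of chromosome 7, from 45129788 to 45136432, and overlaps the protein-coding *Gm45713* on the same strand, a gene that is not in the matrices. *Ifng* (ENSMUSG00000055170) lies on the plus strand of chromosome 10, from 118441046 to 118445892, and overlaps *Gm49751*, also not in the matrices. *Csf2* (ENSMUSG00000018916) lies on the minus strand of chromosome 11, from 54247271 to 54249667, and overlaps the antisense *Gm12223*, which had 0 UMIs in NK-gated barcodes. How reads in overlapping stretches were assigned, and by which strand, is not given in the sources.

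*Xcl1* and *Ifng* were both higher in NK-gated barcodes than in cDC1s, and only *Xcl1* was called against Cd3e-gated barcodes. Their promoters are shown, taken from RefSeq (GRCm38.p6) as the 250 bases before each start, 5′ to 3′ on the strand of the gene. Capitals mark a match to 1 of 5 motifs searched on both strands: TATAAA (the TATA box, in 12.4% of 32851 promoters), TCACAC (a T-box core, 12.3%), GGAAAA (an NFAT core, 20.4%), TGACGTCA (a CRE, 1.55%) and TGACTCA (an AP-1 site, 4.46%). All 4 genes had a promoter in the set.
Xcl1, chr1:164935523-164935772, minus strand: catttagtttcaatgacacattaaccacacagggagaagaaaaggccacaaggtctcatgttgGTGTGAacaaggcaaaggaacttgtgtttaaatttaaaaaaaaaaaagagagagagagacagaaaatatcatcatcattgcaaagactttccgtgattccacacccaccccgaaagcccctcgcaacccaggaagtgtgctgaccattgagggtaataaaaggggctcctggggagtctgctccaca
Ifng, chr10:118440796-118441045, plus strand: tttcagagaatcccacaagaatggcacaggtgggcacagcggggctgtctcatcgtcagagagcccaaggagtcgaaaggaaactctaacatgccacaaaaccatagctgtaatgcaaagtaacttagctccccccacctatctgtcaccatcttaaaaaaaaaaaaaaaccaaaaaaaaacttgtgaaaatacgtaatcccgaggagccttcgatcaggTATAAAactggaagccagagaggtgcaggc
The *Xcl1* promoter held TCACAC on its reverse strand, read here as GTGTGA, at 187 bases before the start, and the *Ifng* promoter held TATAAA at 30 bases before it. None of the 5 motifs was found in the 250 bases of *Flt3l* or of *Csf2*, whose RefSeq start lies outside the GENCODE gene. A match is a description of the letters in this window.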

How the data were processed

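Raw UMI counts per gene and barcode were deposited for 3 libraries, 1 per genotype, made by the authors with Cell Ranger 6.0.1 on a GRCm38 reference per the file headers. The authors' deposited cDC1 table gave library names, cluster numbers (other values, no measurement) and UMI counts per cell, made with Seurat 4.0.0 per the submitters' notes after removal of cells with few genes or a high mitochondrial share. In 4559 of 5806 cDC1s the table's UMIs equalled the matrix sum, and the largest difference was 34 UMIs. The 4 genes and all gene lists were chosen with earlier results of these data known, and the barcodes with at least 5 *Csf2* UMIs, and the genes read in them, were chosen after the values were seen.

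Every deposited barcode that met a gate was used. CPM is a gene's UMIs over all UMIs of the group in a library. Levels have exact Poisson intervals and shares have Clopper-Pearson intervals. A count of 0 was given the upper limit of 3 counts. UMIs were summed per group and library and compared with edgeR 4.0.16 in R 4.3.3 (filterByExpr, TMM factors, quasi-likelihood F test, adjusted p below 0.05), with the SE as the log2 difference over the square root of F. Sums of 1 library share a pool of mice and are paired by design. After removal of group means, paired sums correlated at 0.0862, 0.134 and 0.180 (NK-gated and cDC1s), 0.0723, 0.0544 and 0.103 (NK-gated and Cd3e-gated), 0.0399, −0.00659 and 0.108 (Cd3e-gated and cDC1s) and 0.136, 0.195 and 0.220 (with and without *Mki67*), and the block was kept as an alternative.

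Alternatives were DESeq2 1.42.0, no TMM factors, no filter, a library block, each library left out, barcodes with at least 200 genes and a mitochondrial share up to 17.5%, 1 fit over 3 groups, other gates, thinning of each barcode to 3000 UMIs with shallower ones left out, and removal of the 6% of barcodes with the highest Scrublet scores (scanpy 1.11.5, Python 3.11.15). The doublet caller's own threshold called 596, 2 and 599 barcodes and was not used. The 6% took out 36, 55 and 44 NK-gated barcodes. Lists covered receptors, receptors for input to lymphocytes, dendritic cell inputs, other secreted factors, signalling and 9 sets of cell markers. The totals of the signalling list and of 2 marker sets are not printed, only single genes. From the groups planned, 1 further barcode group was left out of the levels and correlations printed, after its values were seen. Gene positions are from GENCODE M21. Protein sequences and tests between genotypes were left out, the first for lack of a reference and the second for lack of replicates.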

Additional observations from a re-analysis of the deposited data

How the results depend on the processing

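Each genotype had 1 library, so genotypes were not tested, and *Csf2* did not pass the filter between Cd3e-gated barcodes and cDC1s. Of 199 alternative fold changes, 182 were the same, 8 reversed, 7 were stronger and 2 weaker, and of 53 counts of called genes 8 moved. All were in comparisons with Cd3e-gated barcodes or by *Mki67*, and the causes were not tested. With every *Cd3e* barcode that was not NK-gated, called genes against NK-gated barcodes went from 1124 to 3447, *Flt3l* to 0.46 (adjusted p 0.0139) and *Ifng* to 0.38. Thinned to 3000 UMIs, called genes were 504 in this comparison, 3031 (from 4953) between Cd3e-gated barcodes and cDC1s and 1492 (from 3158) by *Mki67*. Thinning also gave *Ifng* 0.076 and *Csf2* −0.55 against Cd3e-gated barcodes, and *Xcl1* −0.047, *Flt3l* −0.30 and *Ifng* −0.55 by *Mki67*. Without a filter, *Csf2* was called at 1.17 against Cd3e-gated barcodes and at 0.61 by *Mki67*, and *Ifng* at −0.28 by *Mki67*. With both *Ncr1* and *Klrb1c* required, *Csf2* was −0.29 against Cd3e-gated barcodes and *Ifng* was called at −0.33 by *Mki67*. With the library as a block, *Ifng* was called at −0.24 by *Mki67*. Leaving out 1 library at a time gave 425 to 807 called genes against Cd3e-gated barcodes. By *Mki67* it gave 1903 to 2727 called genes, *Xcl1* −0.070 to 0.19, *Flt3l* −0.64 to −0.46 and *Csf2* −0.087 to 1.06. Shares of barcodes with a UMI moved in 33 of 48 alternatives, and levels in none of the 36 tallied. Low levels did move elsewhere. Thinned to 3000 UMIs, *Csf2* in NK-gated barcodes of the sGSN-/- library went from 19.0 to 8.63 CPM. *Xcl1* in cDC1s of the sGSN-/-Clec9a-/- library went from 4.42 to 1.77 CPM. In NK-gated barcodes with both gate genes, *Csf2* averaged 5.39 CPM, against 15.1 CPM in all.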
